A study of Mus musculus with 8 samples.

Results

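Postn, Tnc, Thy1 and Lrrc15 are 4 genes known from activated stroma, the connective tissue cells that lay down and remodel matrix in a wound or callus. They were not specific to it here. Tnc was also high in stroma of unfractured bone and was lower over all cells of fractured bone, as given below. The genes were 4 of the 28956 in the count tables and were picked because earlier analyses of these same libraries showed them to rise in, or to mark, the stroma of the fracture callus. The values that chose them were their levels in fractured and unfractured bone and in the cells of the callus that they mark. The difference between these groups, the order of classes and clusters and the likeness among the 4 are therefore described below without a test. The other genes expressed in the cells that carried them, and the genes related to them by function, were tested. The related genes were listed with earlier results of these data known, so their counts between the groups are not independent support.

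Postn encodes periostin, a secreted protein of periosteum and other collagen-rich tissue that binds integrins and assists collagen cross-linking. Tnc encodes tenascin-C, a large multimeric glycoprotein of the matrix that appears in development, at healing wounds and in mechanically loaded tissue. Thy1 encodes CD90, a lipid-anchored surface glycoprotein of fibroblasts, pericytes, neurons and T cells, and Lrrc15 encodes a leucine-rich repeat membrane protein known from fibroblasts exposed to TGF-beta in tumours. All 4 genes are known as targets or companions of TGF-beta signalling, and periostin and tenascin-C bind each other and fibronectin in the provisional matrix.

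The cells sequenced one by one were bone stromal cells of wild-type female C57BL/6 mice, from which magnetic beads had removed lineage-marked blood cells and then CD45+ and CD117+ cells in both groups. The Fracture group was 12 weeks old and had received a fracture of the left leg by three-point bending at 10 weeks, held by an intramedullary nail, with collection at day 14. The Control group was 12 weeks old and unfractured. Each group had 2 cell preparations and each preparation 2 droplet libraries, 8 libraries in all, and the number of animals behind a preparation is not given in the sources used here. A preparation was therefore the replicate (n = 2 per group), and p-values between the groups measure the spread between preparations, which may be technical. Comparisons of positive with negative cells had the preparation as a block, which takes that spread out. Their p-values measure how the difference within a preparation varied, together with counting error.

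In the GENCODE M21 annotation of GRCm38, Postn spans 3: 54361109 to 54391037 on the plus strand with 9 transcripts, and Tnc spans 4: 63959785 to 64047015 on the minus strand with 4. Thy1 spans 9: 44043384 to 44048579 on the plus strand with 6 transcripts, and Lrrc15 spans 16: 30269302 to 30283256 on the minus strand with 1 transcript of 2 exons. The counts come from transcript 3' ends and do not separate the transcripts of a gene. Promoter sequence was matched by symbol for 3 of the 4 genes, Postn, Tnc and Lrrc15, in a RefSeq table of GRCm38.p6. It is shown because these genes moved together in some cells and apart in others. The windows shown, for Postn and Tnc the one nearer to a GENCODE start, hold the 250 bases before a RefSeq transcript start, 5' to 3' on the strand of the gene, at chr3:54360857-54361106 for Postn, chr4:64047016-64047265 for Tnc and chr16:30283255-30283504 for Lrrc15. Capitals mark a TATA box (TATAAA), a GC box (GGGCGG) or an AP-1 element (TGANTCA) on either strand.
Postn: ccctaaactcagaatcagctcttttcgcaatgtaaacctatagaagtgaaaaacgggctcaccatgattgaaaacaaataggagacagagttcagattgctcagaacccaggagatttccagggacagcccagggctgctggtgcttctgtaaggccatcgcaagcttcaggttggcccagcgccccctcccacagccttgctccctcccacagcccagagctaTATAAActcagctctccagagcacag
Tnc: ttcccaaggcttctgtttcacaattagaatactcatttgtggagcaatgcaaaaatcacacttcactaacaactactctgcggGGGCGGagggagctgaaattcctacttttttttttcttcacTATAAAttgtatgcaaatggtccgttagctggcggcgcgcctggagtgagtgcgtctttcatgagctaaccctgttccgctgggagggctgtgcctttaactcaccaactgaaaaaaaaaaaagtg
Lrrc15: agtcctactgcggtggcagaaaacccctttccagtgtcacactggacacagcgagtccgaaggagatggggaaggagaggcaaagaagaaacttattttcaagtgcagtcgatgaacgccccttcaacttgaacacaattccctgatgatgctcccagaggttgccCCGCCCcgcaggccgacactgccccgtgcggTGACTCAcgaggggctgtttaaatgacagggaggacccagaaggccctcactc
The Postn window held a TATAAA whose first base lay 26 bases before the start. The Tnc window held a TATAAA at 126 bases and a GGGCGG at 167 bases before the start. The Lrrc15 window held the AP-1 element TGACTCA at 53 bases and, on the other strand, a GC box at 84 bases before the start. Of 32407 RefSeq windows of this length, 12.3% held TATAAA, 33.1% GGGCGG and 6.74% TGANTCA. The RUNX core TGTGGT, present in 13.9% of all windows, the TEAD motif GGAATG, in 12.5%, and the SMAD box CAGAC, in 42.1%, were not among the letters of these 3 windows. The table holds a second window each for Postn and Tnc, at another transcript start and not shown, and each of these had 1 SMAD box, at 191 and 70 bases before its start. The E-box CANNTG, in 66.2% of all windows, matched 3 times in Tnc and once in Lrrc15. None of these motifs overlapped another in the windows shown. A match is a match of letters only.

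Depth ranged from 56543151 to 89126291 UMIs per library, a UMI (unique molecular identifier) standing for 1 captured transcript, and 45328 of 48903 barcodes passed the filters, the median cell holding 7711 UMIs in Control and 11351 in Fracture. The deposited barcodes began at 1 to 3 UMIs in the Control libraries and at 1929 to 2724 in the Fracture libraries, so barcodes had been selected differently in the groups. Cells were grouped by clustering without the 4 genes and without the gene lists used below. The fibroblast-like, BMSC-like and osteoblast-like classes were the main ones here. Fibroblast-like cells (Prg4, Cilp, Mfap5) numbered 421 and 150 in the Control and 714 and 841 in the Fracture preparations, BMSC-like cells, named for bone mesenchymal stromal cells and led by Cxcl12, Adipoq and Lepr, 2624 and 1724 against 1049 and 1117, and osteoblast-like cells (Bglap2, Bglap, Col22a1) 1679 and 997 against 1600 and 1717.

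The label of the BMSC-like class did not hold equally in both groups, and this bears on every value given for it. The summed level of its 8 markers, in transcript counts scaled to a common library total (CPM), was 27067 and 28699 in Control and 1986 and 2364 in Fracture, while the sum of 8 smooth muscle markers was 295 and 228 against 1363 and 1084. When the libraries were clustered without integration, 79.5% of the 4348 Control cells of this class stayed BMSC-like, but only 8.17% of the 2166 Fracture cells did. Of the Fracture cells, 51.2% went to the osteoblast-like and 37.7% to the fibroblast-like class. The class is called integrated BMSC-like below, and its levels, shares and changes in list genes are given with and without integration. The shares of all UMIs that it supplied, its pairs of genes, its finer clusters and its comparisons of positive and negative cells are given with integration only, so that they rest on this mixed class. The fibroblast-like class kept 91.6% of its Control and 96.0% of its Fracture cells without integration, and the osteoblast-like class 99.0% and 99.2%. In fibroblast-like cells, chondrocyte markers summed to 10997 and 7575 CPM in Control against 15108 and 12847 in Fracture, and the class's own markers to 20551 and 21008 against 7836 and 8446. Most of the latter difference lay in Prg4, at 15157 and 15394 CPM against 2602 and 3286, while Dpt (153 and 136 against 531 and 533), Mfap5 (263 and 371 against 920 and 785) and Clec3b (346 and 394 against 519 and 427) were higher in Fracture. Igfbp6 (2201 and 2357 against 1518 and 1399), S100a4 (2344 and 2306 against 1613 and 1856) and Pi16 (34.99 and 41.3 against 26.1 and 26.3) were lower, like Prg4. The part of these differences in the values below was not tested.

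In fibroblast-like cells, all 4 genes were higher in both Fracture preparations than in either Control preparation. They were chosen by their levels in these groups, and the share of all genes without overlap was not counted. Levels are given as CPM with trimmed-mean (TMM) scaling within a class, in the order Control 1, Control 2, Fracture 1, Fracture 2. Postn was 382 and 57.5 CPM in Control and 2164 and 2055 in Fracture, with means of 220 ± 229 and 2110 ± 77.6 (SD, n = 2) and a log2 ratio of 3.26. Control 1 was well above Control 2, but both lay far below Fracture. Tnc was 146 and 38.3 CPM in Control and 740 and 736 in Fracture, a log2 ratio of 3.0. Lrrc15 was 23.1 and 21.7 CPM against 247 and 239, a log2 ratio of 3.44, with Control preparations closer to each other than for any other of the 4 genes. Thy1 differed least, with 41.5 and 88.7 CPM in Control and 99.7 and 93.7 in Fracture, a log2 ratio of 0.57, and on plain CPM, without TMM scaling, its groups overlapped (94.2 in Control 2 against 90.1 in Fracture 2). With only cells of at least 3000 UMIs, the log2 ratios of Postn, Tnc, Lrrc15 and Thy1 were 3.22, 2.99, 3.43 and 0.55. Without Control 1 or Control 2 the log2 ratio was 5.20 or 2.47 for Postn, 4.27 or 2.34 for Tnc and 0.12 or 1.22 for Thy1. For background, 17.9% of the 12671 genes tested in this class passed an adjusted p of 0.05 (edgeR quasi-likelihood test), a share that says nothing about the 4 genes, which this contrast chose.

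In integrated BMSC-like cells the genes parted. Postn was 444 and 239 CPM in Control and 1488 and 1386 in Fracture, a log2 ratio of 2.07. Tnc was already high in Control, at 2501 and 2055 CPM, and lower in Fracture, at 1788 and 1802, a log2 ratio of -0.34. The groups did not overlap for any of the 4 genes, which were chosen by their levels in these groups. In this class 51.1% of the 14773 genes tested passed the test (edgeR). That is another measure, and the share of all genes without overlap was not counted. Thy1 had 3 UMIs in all Control cells of the class and 76.3 and 75.2 CPM in Fracture, a pooled ratio of 667 with a 95% counting interval of 228 to 3240. Lrrc15 had 2 UMIs in Control and 77.9 and 76.1 CPM in Fracture, a pooled ratio of 1017 (interval 281 to 8408). These intervals cover counting error only.

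Without integration the picture in BMSC-like cells changed, and for Tnc the direction turned. Postn was then 60.9 and 47.3 CPM in Control and 334 and 243 in Fracture. Tnc was 1867 and 1567 against 3446 and 3019, higher in both Fracture preparations, with a log2 ratio of 0.91. Thy1 was 0.916 and 0.0978 CPM in Control and 0 and 1.55 in Fracture, which overlapped, from 11 UMIs in Control and 1 in Fracture, and Lrrc15 had no UMI in any of these preparations. The cells that changed class carried the signal of Thy1 and Lrrc15. In plain CPM, the 816 Fracture cells that moved to the fibroblast-like class held Postn at 2276 and 2185, Tnc at 893 and 834, Thy1 at 128 and 119 and Lrrc15 at 155 and 156. These cells also held Acta2, a contractile actin of smooth muscle and myofibroblasts, at 1720 and 1430 CPM and Cxcl12 at 398 and 505. The 811 Control cells that moved to the osteoblast-like class held more Postn (1339 and 1070 CPM) and Tnc (4335 and 4559) than the 1109 Fracture cells that did so (Postn 670 and 626, Tnc 2317 and 2309). In cells that stayed BMSC-like, Tnc was 1961 and 1611 CPM in Control and 3426 and 2986 in Fracture.

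**Figure D1:**
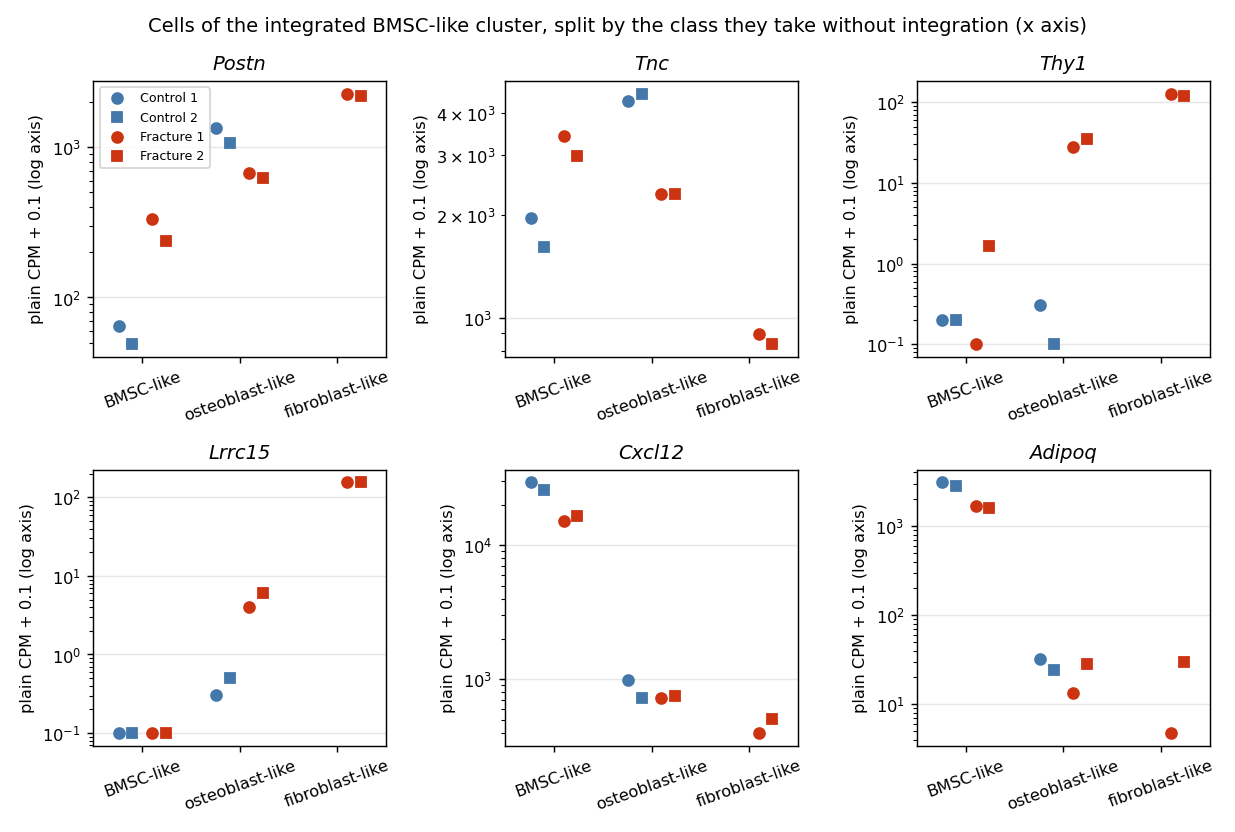
Levels of the 4 genes, Cxcl12 and Adipoq in cells of the integrated BMSC-like cluster, split on the x axis by the class they took without integration (y axis, plain CPM + 0.1, log axis). Points are preparations, blue for Control and red for Fracture, circles for preparation 1 and squares for 2. Thy1 and Lrrc15 of Fracture lie near 120 and 155 CPM in cells placed as fibroblast-like, which Control lacks in number.

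Osteoblast-like cells, the matrix-forming cells of bone, showed little of the pattern. Postn was 71.6 and 59.9 CPM in Control and 68.6 and 60.1 in Fracture, and the groups overlapped. Tnc was 138 and 148 CPM in Control and lower in Fracture, at 101 and 87.2, a log2 ratio of -0.60. Lrrc15 was 1.74 and 2.27 CPM against 6.42 and 9.02, a log2 ratio of 1.94. Thy1 had 3 UMIs in each Control preparation and stood at 2.64 and 3.61 CPM in Fracture, without overlap. In this class 15.5% of the 13687 genes tested passed the test (edgeR). Erythroid-like cells should lack Postn and Tnc, and their values are set beside those of this class. In plain CPM they held Postn at 4.65 and 0.733 in Control and at 65.2 and 69.0 in Fracture, and Tnc at 23.0 and 4.85 against 142 and 111. In the same unit, Postn in Fracture osteoblast-like cells was 71.7 and 60.1, which overlapped the erythroid-like level, and Tnc was 106 and 87.1, below it. Over the whole class the Fracture levels of both genes were therefore not separable from that level, although a finer cluster described below lay above it. Their Control levels were above those of erythroid-like cells. Without integration, when the class took in cells from the BMSC-like one, Postn stood at 248 and 184 TMM-scaled CPM in Control and 190 and 173 in Fracture and still overlapped. For Thy1 and Lrrc15 the erythroid-like cells stayed at or below 2.38 CPM in every preparation.

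Across the 6 classes outside the blood, each gene had its own order, taken on plain CPM because TMM scales a class on its own. In Fracture, Postn was highest in fibroblast-like cells (2090 and 1975), followed by integrated BMSC-like (1399 and 1286), smooth muscle-like (711 and 539) and chondrocyte-like cells (193 in both). Below these lay endothelial-like (112 and 61.8) and osteoblast-like cells (71.7 and 60.1), which overlapped. In Control, integrated BMSC-like (477 and 254) and fibroblast-like cells (387 and 61.0) overlapped at the top of Postn. Chondrocyte-like cells, at 6.26 and 1.71 CPM in Control, had in TMM-scaled values the widest log2 ratio of Postn, 5.75, which was 6.95 or 5.11 without Control 1 or Control 2. Their Control levels overlapped those of erythroid-like cells (4.65 and 0.733), and in Fracture, where erythroid-like cells stood at 65.2 and 69.0, they lay above them. What part of the Postn of chondrocyte-like cells came from other cells was not tested.

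Tnc was highest in integrated BMSC-like cells in both groups. In Fracture, fibroblast-like cells followed at 715 and 708 plain CPM and smooth muscle-like cells at 215 and 196, while osteoblast-like, endothelial-like and chondrocyte-like cells held 54.8 to 106, below the erythroid-like cells of that group (142 and 111). Thy1 was highest in smooth muscle-like cells after fracture, at 537 and 505 TMM-scaled CPM against 69.4 and 89.8 in Control, a log2 ratio of 2.71. Postn in these cells, the contractile mural cells of vessels, was 85.1 and 90.5 CPM in Control and 720 and 540 in Fracture. Lrrc15 had 2 UMIs in Control smooth muscle-like cells and 47.3 and 23.2 CPM in Fracture, a pooled ratio of 84.4 (interval 22.8 to 706). Fibroblast-like cells led the order of Lrrc15 in both groups, with no overlap with the next class.

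**Figure D2:**
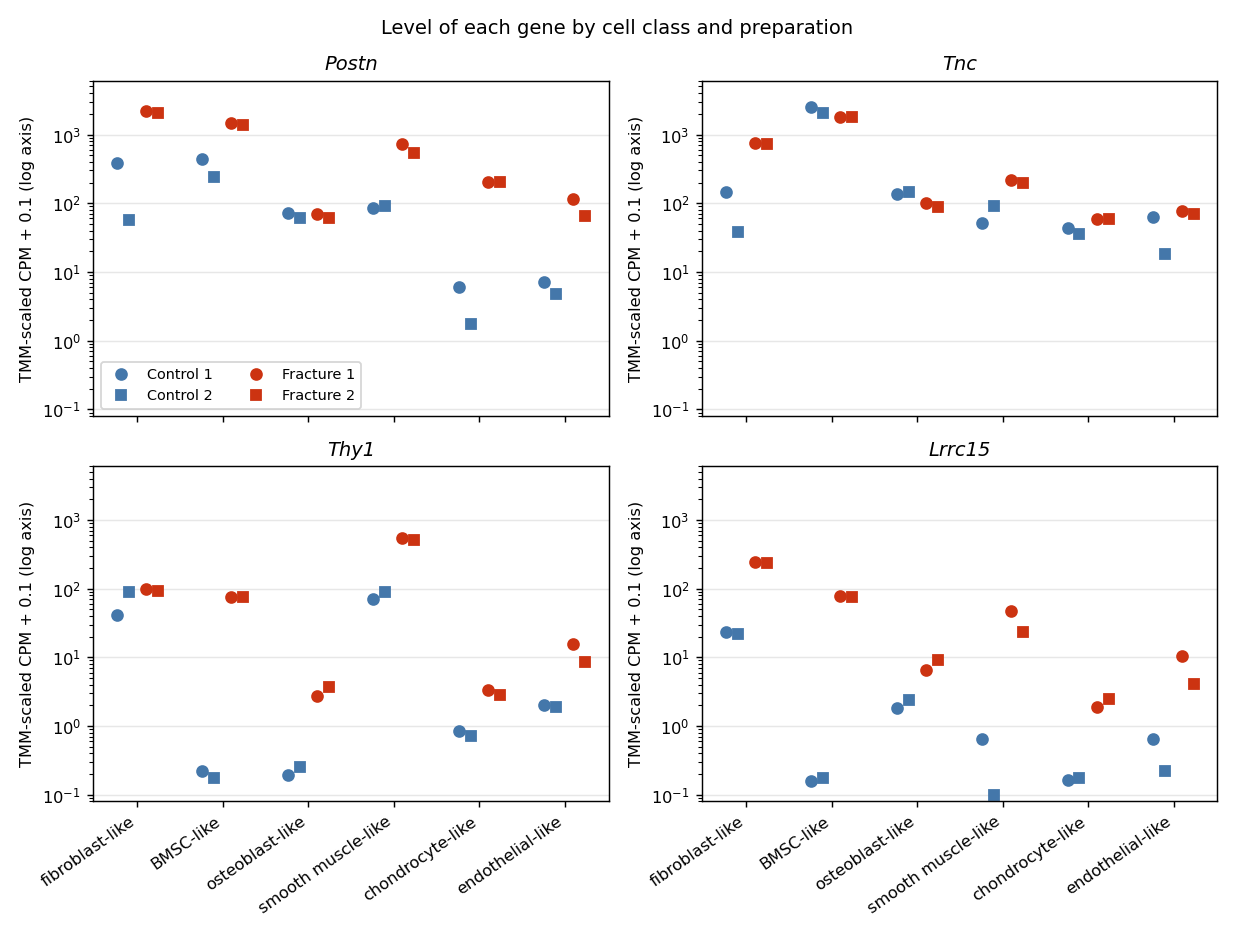
Levels of Postn, Tnc, Thy1 and Lrrc15 in 6 cell classes (x axis) and 4 preparations (y axis, TMM-scaled CPM + 0.1, log axis), with Control in blue and Fracture in red, circles for preparation 1 and squares for 2. All 4 genes, which were chosen by their levels in these groups, are higher in Fracture in fibroblast-like and smooth muscle-like cells. Tnc is lower in integrated BMSC-like cells, where it turns to higher without integration, and in osteoblast-like cells.

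Over all cells, the classes that supplied each transcript changed, which reflects both their cell numbers and their levels. Fewer cells of a class and less RNA per cell cannot be told apart in such totals. Postn was 90.4 and 51.1 CPM over all cells in Control and 369 and 348 in Fracture. Of its Control UMIs, 63.9% and 67.1% came from integrated BMSC-like cells, whereas in Fracture 31.6% and 33.9% came from fibroblast-like, 33.1% and 34.5% from chondrocyte-like cells, with the erythroid-like level given above, and 27.9% and 25.9% from integrated BMSC-like cells. Tnc went the other way, from 386 and 337 CPM to 224 and 215 over all cells, with 84.3% and 87.4% of its UMIs from integrated BMSC-like cells in Control and 55.2% and 54.5% in Fracture. Lrrc15 was 1.27 and 0.983 CPM in Control and 22.0 and 21.9 in Fracture, of which fibroblast-like cells, 6.02% and 6.58% of cells, supplied 60.6% and 62.9%. Thy1 was 5.34 and 4.43 CPM against 19.8 and 17.9. Smooth muscle-like cells, 1.39% and 1.30% of Fracture cells, supplied 28.1% and 26.9% of its UMIs, against 36.6% and 27.7% in Control. Fibroblast-like cells supplied 19.6% and 33.2% of Thy1 UMIs in Control and 27.1% and 30.2% in Fracture, and integrated BMSC-like cells 0.291% and 0.239% against 26.6% and 27.4%. Granulocyte-like cells, led by basophil genes and few in Fracture, supplied 34.9% and 32.5% in Control and 0.180% and 0.206% in Fracture.

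To count the cells that carried a gene at equal depth, 2000 UMIs were drawn from every cell, and cells with fewer were dropped, which removed 46 of 571 Control and no Fracture fibroblast-like cells. Of fibroblast-like cells, 9.97% and 5.56% had Postn in Control and 76.9% and 74.6% in Fracture. Tnc was found in 16.0% and 4.86% against 62.0% and 59.8%, Lrrc15 in 3.41% and 1.39% against 30.1% and 26.2%, and Thy1 in 5.51% and 9.03% against 16.4% and 14.4%. The groups did not overlap for any of the 4 genes, which were chosen by their levels in these groups, and the share of all genes without overlap was not counted. Without thinning, Postn was found in 89.6% and 88.6% and Thy1 in 38.9% and 37.2% of Fracture cells. In erythroid-like cells thinned alike, Postn was found in 0.441% and 0.180% of Control and 5.61% and 8.42% of Fracture cells, Tnc in 2.86% and 1.26% against 9.81% and 9.09%. Median depths before thinning were 9841 and 10552 UMIs in Fracture fibroblast-like and 7390 and 7278 in Fracture erythroid-like cells.

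Postn in Control fibroblast-like cells was held by few cells. The 259 thinned Postn UMIs of Control 1 lay in 38 of 381 cells. A fibroblast-like cell without any of the 4 genes was the rule in Control, at 75.1% and 83.3%, and rare in Fracture, at 9.80% and 9.87%. At least 3 of the 4 genes were found together in 1.84% and 1.39% of Control and 23.8% and 19.6% of Fracture cells. All 4 were found in 3.92% and 2.5% of Fracture cells and in 0 of 525 Control cells, which allows a share of up to 0.571% of cells with such UMIs at this depth and does not limit the share that express the genes.

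Within Fracture, the share of cells with a pair of genes was set beside the product of their separate shares. Postn and Tnc were found together in 51.7% and 48.2% of fibroblast-like cells, 1.08 times in both preparations what their separate shares would give if independent. Thy1 and Lrrc15 were found together in 7.42% and 6.30%, 1.5 and 1.67 times that product, while Tnc and Thy1 were found together in 8.96% and 5.83%, 0.882 and 0.677 times. Cells of a preparation are not replicates, so these ratios are descriptions. The highest ratio possible falls as the larger of the separate shares rises, and Postn was found in most Fracture fibroblast-like cells. The size of a ratio therefore does not rank pairs with unlike shares. In integrated BMSC-like cells of Fracture, Postn with Lrrc15 came to 1.43 and 1.47 times the product and Tnc with Lrrc15 to 0.828 and 0.644 times. Of these cells 63.9% and 62.0% had Postn in Fracture against 22.1% and 14.3% in Control, whereas Tnc was found in 82.1% and 76.2% of Control and 78.6% and 77.6% of Fracture cells, which overlapped. Lrrc15 was found in 7.91% and 7.88% of Fracture and 0 of 3840 Control cells, which allows up to 0.0781% of cells with a UMI at this depth (unthinned, the class held 2 Lrrc15 UMIs in Control), and Thy1 in 8.29% and 8.95% of Fracture and 1 Control cell. Without integration these shares of Thy1 and Lrrc15 did not hold in BMSC-like cells. Thy1 was then found in 3 of 3089 Control and 0 of 180 Fracture cells, a difference of -0.0861 percentage points between the group means, and Lrrc15 in none of either. Postn was found in 5.40% and 4.31% of Control and 32.5% and 31.1% of Fracture cells, and Tnc in 77.2% and 72.4% against 96.1% and 91.3%.

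In osteoblast-like cells 10.4% and 8.50% had Postn in Control and 10.9% and 9.67% in Fracture. Both Fracture shares lay above those of erythroid-like cells given before. Their Wilson 95% intervals (9.44% to 12.5% and 8.36% to 11.2%) overlapped those of erythroid-like cells (3.24% to 9.54% and 5.77% to 12.1%). These intervals cover counting error only, and their overlap does not make the shares equal. Postn with Tnc was found in 6.30% and 5.91% of Control osteoblast-like cells, 3.71 and 4.69 times the product of their shares, and in 3.0% and 2.97% of Fracture cells. Thy1 and Lrrc15 together were found in none of them. In smooth muscle-like cells Thy1 was found in 9.01% and 14.1% of Control and 67.9% and 53.6% of Fracture cells, together with Postn in 46.7% and 30.1% of the latter.

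**Figure D3:**
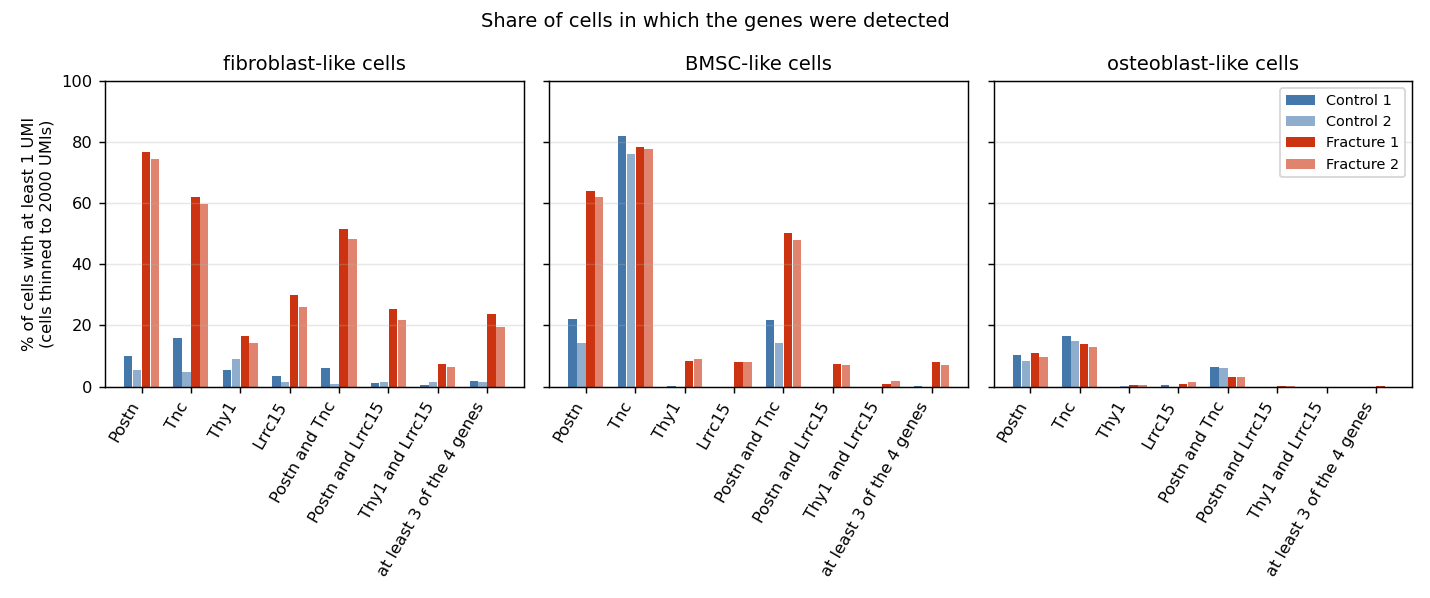
Share of cells with at least 1 UMI of a gene or of a pair of genes (y axis, %, cells thinned to 2000 UMIs) in fibroblast-like, integrated BMSC-like and osteoblast-like cells, by preparation (blue bars Control, red bars Fracture, preparation 2 paler). In fibroblast-like cells Postn goes from at most 9.97% in Control to at least 74.6% in Fracture, and in osteoblast-like cells the bars differ little.

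Finer clusters of the 3 classes, again made without the 4 genes, located the signal further and are named by number and leading genes. Cluster 11 (Clec3b, Mfap5, Dpt), with 65 Control and 399 Fracture cells, held the highest Lrrc15 of the clusters with 50 or more cells in each group, at 76.2 and 106 plain CPM in Control and 439 and 427 in Fracture. Its Thy1 was also the highest, and here both Control preparations lay above Fracture, at 244 and 493 against 222 and 210. Its Postn was 158 and 248 CPM in Control and 2717 and 2313 in Fracture. Cluster 6 (Cytl1, Cilp, Comp), with matrix genes of cartilage among its leading genes, went from 6.79 and 5.04 CPM of Postn to 1685 and 1554, with Thy1 at only 41.6 and 27.9 in Fracture. Its cells may be unlike between the groups. Acan was 1067 and 1476 CPM there in Control and 2601 and 2630 in Fracture. Cytl1, in fibroblast-like cells without Thy1, was 11126 CPM in Control 1 and at most 99.8 in Fracture. The part of this in the Postn values was not tested. Cluster 7 (Tagln, Acta2), divided between fibroblast-like (50.7%) and integrated BMSC-like cells (49.3%), held Postn at 1556 and 54.1 CPM in Control, with 1221 of its UMIs in Control 1 and 21 in Control 2, and at 2539 and 2754 in Fracture.

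Among the clusters of the integrated BMSC-like class, cluster 0 (Lpl, Adipoq, Cxcl12) had almost no Postn in Control, 5.05 and 1.81 CPM in 2162 cells, and 1957 and 1707 CPM in the 351 Fracture cells placed with it. Those cells held Cxcl12 at 5235 and 5783 CPM, against 34043 and 29166 in Control, so that they went against the markers of the cluster. Tnc in cluster 0 was 1244 and 987 CPM in Control and 1221 and 1107 in Fracture, which overlapped. Cluster 2 (Kcnk2, Limch1, A2m) and cluster 8 (Mmp9, Spp1, Mmp13) held the highest Tnc, at 4766 and 4494 CPM and at 4414 and 5126 in Control, and less in Fracture, at 3855 and 3599 and at 2152 and 2115. Tnc itself is among the leading genes of cluster 8. Postn differed less there than elsewhere, at 716 and 585 against 830 and 768 CPM in cluster 2, and was lower in Fracture in cluster 8, at 1626 and 1157 against 912 and 890. Lrrc15 stayed at 0 UMIs in Control and at 0 and 4 UMIs in Fracture in cluster 2.

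The osteoblast-like class held most of its Postn and Tnc in cluster 4 (Panx3, Adamts18, Ibsp), at 369 and 320 CPM of Postn in Control and 198 and 166 in Fracture, and 649 and 740 against 404 and 306 CPM of Tnc. Both genes were lower in Fracture in this cluster, without overlap. In the Bglap-led clusters 1 and 3 Postn lay between 5.80 and 41.9 CPM. Cycling cells (cluster 10, Top2a, Mki67) held all 4 genes in Fracture, with Thy1 at 85.0 and 104 and Lrrc15 at 97.0 and 87.7 CPM. In Control these 2 had 4 and 1 UMIs and 0 and 4 UMIs. Postn there was 624 and 302 CPM in Control and 1197 and 1066 in Fracture. Tnc was higher in Control, at 2635 and 1723 against 1097 and 1023. The cells of this cluster may be unlike between the groups, with Bglap at 7011 and 6177 CPM in Control and 169 and 297 in Fracture. In cluster 14 (Prg4, F13a1), with 29 Control and 61 Fracture cells, Postn was 14.5 and 5.26 CPM in Control, from 2 and 1 UMIs, and 44.6 and 75.0 in Fracture, from 14 and 28 UMIs, near the erythroid-like level of that group.

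**Figure D4:**
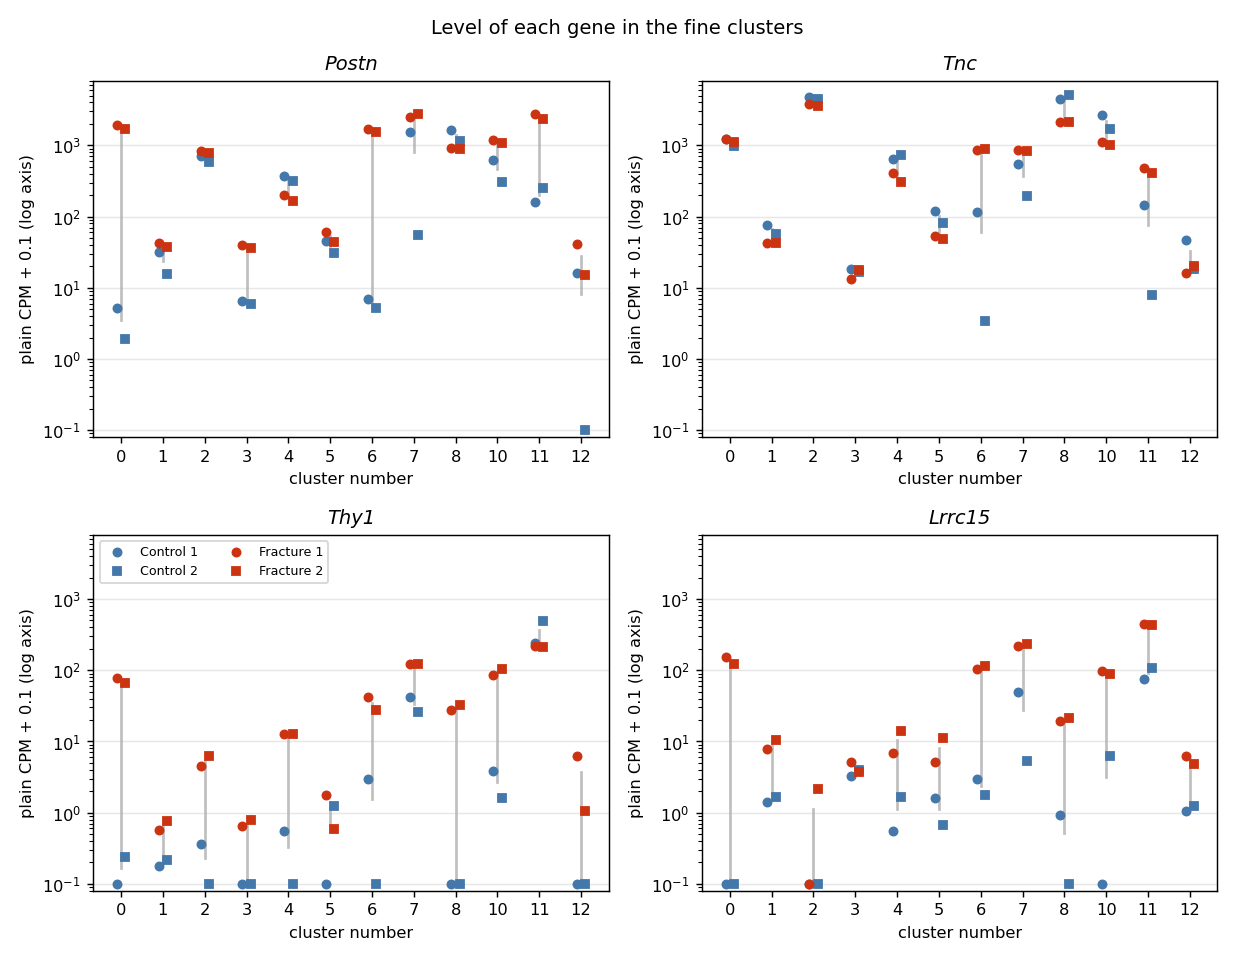
Levels of the 4 genes in the finer clusters with at least 50 cells in each group (x axis, cluster number; y axis, plain CPM + 0.1, log axis), by preparation, with Control in blue and Fracture in red, circles for preparation 1 and squares for 2, and grey lines between the group means. Cluster 11 holds the highest Lrrc15, near 430 CPM in Fracture, and clusters 2 and 8 the highest Tnc.

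The genes that accompanied each of the 4 were tested by comparing cells with and without it inside a class and preparation, at 2000 UMIs per cell, with the preparation as a block (edgeR quasi-likelihood test, Benjamini-Hochberg adjustment). Each gene was tested in the class, out of the 3, that gave most positive cells in its poorest preparation. For Postn this was the integrated BMSC-like class, with 228 to 692 positive cells per preparation, and 111 of 9506 genes differed (1.17%), 27 higher and 84 lower in Postn-positive cells. The genes of marrow stroma were lower. Adipoq, an adipokine that marks marrow stromal cells, was 2899 and 2553 CPM in negative and 175 and 94.8 in positive Control cells, and 399 and 485 against 14.4 and 24.2 in Fracture, with a log2 difference of -4.45 ± 0.20 (SE, adjusted p = 0.00049). Of the 8 BMSC markers 6 were lower, Adipoq, Cxcl12, Ebf3, Esm1, Kitl and Lepr. Fmo2, Efemp1, Serpina3f and Slc26a7 were next, with log2 differences of -4.40 to -3.73. With 1 preparation left out, Fmo2 moved between -5.11 and -4.11 and Efemp1 between -5.07 and -3.58. Serpina3f then moved between -4.08 and -3.63 and Slc26a7 between -4.11 and -3.10.

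Matrix genes were among those higher in Postn-positive cells. Fbln2, a matrix glycoprotein, was 36.9 and 43.1 CPM in negative and 272 and 281 in positive Fracture cells, a log2 difference of 2.68 ± 0.25 (edgeR adjusted p = 0.0081), though in Control it reached 8.96 CPM at most. Tnn, which encodes tenascin-N, had a log2 difference of 2.59 ± 0.31 (edgeR adjusted p = 0.0147) and was higher in 4 of 4 preparations. Actg2, a smooth muscle actin, Sftpa1 and Apol6 had differences of 2.67, 3.20 and 2.38, of which Sftpa1 did not pass without Control 1 or Control 2 (3.70 and 2.27), and Scx and Fmod, genes of tendon, were also higher. Of the matricellular list 5 of 29 genes tested were higher and 1 lower, and of the activated fibroblast list 1 of 29 was higher. Of the other 3 members, Tnc was higher in Postn-positive cells in 4 of 4 preparations, at 5028 and 5564 against 1769 and 1465 CPM in Control and 2343 and 2254 against 1951 and 1838 in Fracture. Lrrc15 was 98.7 and 104 CPM in positive against 10.9 and 12.3 in negative Fracture cells. Without Control 1 or Control 2 the count was 22 or 19, and without integration this class was composed otherwise. By finer cluster, 50.6% and 59.2% of Postn-positive Control cells lay in cluster 2 and 35.9% and 35.5% in cluster 8, while 68.8% and 66.7% of negative cells lay in cluster 0. The Fracture cells were spread otherwise. Cluster 2 held 22.1% and 24.4% of positive against 22.7% and 21.6% of negative Fracture cells, and cluster 8 held 18.8% in both against 21.4% and 22.1%. Cluster 7 held 27.8% and 22.1% of positive against 6.86% and 6.12% of negative Fracture cells.

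Tnc was tested in the same class, where 479 of 9775 genes differed (4.9%), 207 higher and 272 lower in Tnc-positive cells. All 6 genes on the list for metaphyseal stroma (A2m, Hey1, Kcnk2, Limch1, Mmp13 and Slc20a2) were higher. A2m, a protease inhibitor, was 11.7 and 41.7 CPM in negative against 252 and 366 in positive Control cells, and 0 in negative against 49.5 and 65.6 in positive Fracture cells, a log2 difference of 3.75 ± 0.26 (edgeR adjusted p = 8.28e-06). Limch1, an actin-binding protein, differed by 3.26 ± 0.13 (edgeR adjusted p = 1.19e-07), and Wif1, a secreted Wnt inhibitor, by 3.25 ± 0.19, each in 4 of 4 preparations. Slc20a2, a phosphate transporter, and Angpt4, an angiopoietin, were higher by 3.33 and 3.26.

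Genes of contractile cells, tendon and fibroblasts were lower in Tnc-positive cells. Of the smooth muscle markers tested 4 of 6 were lower (Acta2, Des, Mustn1, Tagln), of the tendon list 4 of 4 (Fmod, Scx, Thbs4, Tnmd) and of the fibroblast markers 4 of 5 (Igfbp6, Mfap5, Prg4, Tnmd). Mmp3, a matrix protease, was 283 and 246 CPM in negative against 15.4 and 40.2 in positive Fracture cells, a log2 difference of -3.25 ± 0.27 (edgeR adjusted p = 2.78e-05), and was at most 2.34 CPM in Control. Nov and Cpxm2 behaved alike, with differences of -3.24 and -2.72. The muscle genes Acta1 and Myl1 were lower by 6.17 and 3.08 on the log2 scale, with Acta1 at 216 and 575 CPM in negative Fracture cells, where skeletal muscle RNA was not separated from the class. With 1 preparation left out the difference of Myl1 was -3.76 to -2.61. Thy1 and Lrrc15 were lower in Tnc-positive Fracture cells, Lrrc15 at 50.1 and 37.1 against 130 and 186 CPM. Postn was higher in Tnc-positive Control cells, at 401 and 258 against 16.4 and 6.31 CPM, but lower in Tnc-positive Fracture cells, at 1360 and 1205 against 1615 and 1824. Of the matricellular list 5 of 29 genes tested were higher and 7 lower in Tnc-positive cells, and of the activated fibroblast list 3 of 30 were higher and 3 lower. Of negative Fracture cells 36.4% and 30.8% lay in cluster 7, against 15.8% and 11.8% of positive cells. Cluster 2 held 27.7% and 26.1% of positive Control cells and 27.8% and 29.6% of positive Fracture cells. Of negative cells it held 1.24% and 0.79% in Control and 2.22% and 1.6% in Fracture. A2m, Slc20a2, Limch1, Angpt4 and Wif1 are all among the leading genes of that cluster. Differences within a cluster were not tested. Without Control 1 the count was 232, and without Fracture 2 it was 297.

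Thy1 was tested in fibroblast-like cells of Control 1, Fracture 1 and Fracture 2, with 21, 117 and 121 positive cells, since Control 2 held 13. Of 6159 genes 207 differed (3.36%), 84 higher and 123 lower in Thy1-positive cells. With 21 positive cells in Control 1, low levels in them rest on few UMIs, among them those of Cxcl9 and Lama2. The 6 markers of dermal-type fibroblasts (Clec3b, Dpt, Gsn, Ly6a, Mfap5 and Pi16) were all higher. Pi16, a marker of adventitial fibroblasts, was 19.96, 18.3 and 26.8 CPM in negative and 225, 72.6 and 79.5 in positive cells, a log2 difference of 2.09 ± 0.36 (edgeR adjusted p = 0.00107). Sfrp4, a secreted Wnt antagonist, differed by 2.18 ± 0.20, and the interferon-induced chemokine Cxcl9 by 3.29 ± 0.30 (edgeR adjusted p = 7.34e-07). Scara5, a ferritin receptor, and Lama2, a laminin chain, were higher by 2.14 and 2.00. All 5 were higher in 3 of 3 preparations.

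Genes of cartilage were lower in Thy1-positive cells. Cytl1, a secreted protein of cartilage, was 11126, 99.7 and 63.6 CPM in negative and 337, 4.54 and 0 in positive cells, a log2 difference of -5.05 ± 0.28 (edgeR adjusted p = 4.83e-10). Prg4, the lubricin of joint surfaces, differed by -3.06 ± 0.35 and Slurp1 by -3.04 ± 0.56. R3hdml differed by -3.45 ± 0.68, and Tspan13 had no UMI in positive cells and 86.0, 23.8 and 24.5 CPM in negative cells. Leaving out 1 preparation moved these differences to between -7.10 and -3.03 for R3hdml, which then passed only without Control 1, -5.06 and -2.0 for Slurp1, which did not pass without Fracture 1, and -4.07 and -2.23 for Prg4. Of the chondrocyte markers 6 of 7 tested were lower, and of the lining fibroblast markers 2 of 4 (Cilp2 and Prg4). Of the matricellular list 4 of 29 genes tested were higher and 7 lower, among them Fn1, Sparc and Col12a1, and of the activated fibroblast list 2 of 28 were higher and 1 lower. Haemoglobin genes Hba-a1 and Hbb-bs were higher, here and not beside Lrrc15, where they were lower, and their part in the result was not tested. Lrrc15 was higher in Thy1-positive cells in 3 of 3 preparations, at 67.3, 422 and 411 against 26.1, 234 and 206 CPM. Tnc was lower in all 3, at 157, 690 and 530 against 183, 807 and 835. In Control 1 the levels of both genes in positive cells rest on 21 cells and few UMIs. In Fracture 54.7% and 53.7% of Thy1-positive cells lay in cluster 11, against 21.6% and 19.4% of negative cells. The count was 335 without Control 1, 78 without Fracture 1 and 60 without Fracture 2.

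Lrrc15 could be tested in fibroblast-like cells of the Fracture preparations only, with 215 and 220 positive cells and 1 residual degree of freedom, and 481 of 7392 genes differed (6.51%), 200 higher and 281 lower in Lrrc15-positive cells. The count was 99 with DESeq2, 179 with cells thinned to 1000 UMIs and 933 at 4000 UMIs. The p-values of this comparison rest on the differences within these Fracture preparations only and do not measure the spread between preparations. Wnt16, a Wnt ligand, was 18.7 and 8.42 CPM in negative and 75.7 and 53.8 in positive cells, a log2 difference of 2.27 ± 0.35 (edgeR adjusted p = 4.63e-09). Il1rl1, the interleukin-33 receptor, differed by 1.6 ± 0.22 and Lrrc17 by 1.43 ± 0.17. Vgll3, a transcription cofactor, and Pcdh19, a protocadherin, differed by 1.43 and 1.42. Of the activated fibroblast list 8 of 28 genes tested were higher, Adam12, Col3a1, Cthrc1, Fstl1, Lum, Mmp14, P4ha3 and Tpm1, and 3 were lower. Of the matricellular list 10 of 29 were higher and 9 lower.

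Cytl1 had no UMI in Lrrc15-positive cells and 114 and 69.9 CPM in negative cells. Mfi2, the transferrin family protein melanotransferrin, differed by -3.61 ± 0.32 (edgeR adjusted p = 1.57e-27), and R3hdml, Folr2 and Slurp1 by -5.31, -3.16 and -3.06. Of the chondrocyte markers 5 of 7 tested were lower and of the osteoblast markers 3 of 6. Of the 6 dermal-type markers 4 were higher (Clec3b, Dpt, Ly6a, Mfap5) and 2 lower (Gsn, Pi16), so that Pi16 was higher beside Thy1 and lower beside Lrrc15, a difference that was not itself tested. Postn was higher in Lrrc15-positive cells, at 2939 and 2973 against 1947 and 1777 CPM, and so was Thy1, at 166 in both against 75.9 and 78.3. Tnc did not move one way, at 771 and 719 against 736 and 759 CPM. In Fracture 40.0% and 41.4% of Lrrc15-positive cells lay in cluster 11 and 25.1% and 22.7% in cluster 6, against 21.4% and 18.4%, and 53.5% and 52.2%, of negative cells.

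Genes related to the 4 by function were then compared between Fracture and Control in the 3 classes, with the preparation as the replicate (edgeR quasi-likelihood test over all genes, adjusted p under 0.05). The lists were chosen with earlier results of these data known, so the counts below describe the lists and are not independent support. Of 30 matricellular and provisional matrix genes, those secreted into a matrix under repair, 14 rose and 2 fell in fibroblast-like cells, 22 of 29 tested rose and 3 fell in integrated BMSC-like cells, and 13 of 28 rose and 4 fell in osteoblast-like cells, beside 17.9%, 51.1% and 15.5% of all genes called in either direction. The median log2 change of the list in fibroblast-like cells was 1.01, against -0.01 over all genes tested. Fbn2, a fibrillin, rose from 7.11 and 10.3 to 116 and 126 CPM in fibroblast-like cells, a log2 change of 3.85 ± 0.19 (edgeR adjusted p = 0.00408). Thbs2, a thrombospondin, rose by 2.23 ± 0.37, and by 1.79 to 2.91 with 1 preparation left out. Ctgf, a matricellular growth factor modulator, fell from 2791 and 2565 to 340 and 246 CPM, a change of -3.19 ± 0.22 (edgeR adjusted p = 0.00558). In integrated BMSC-like cells Fbln2, Thbs4 and Aspn had the largest rises, 7.03, 6.60 and 6.37. Without Control 1 or Control 2 these were 7.44 or 6.73 for Fbln2, 8.71 or 5.83 for Thbs4 and 6.98 or 5.95 for Aspn, so that their order changed. Without integration Fbln2 and Aspn did not pass the test (edgeR adjusted p = 0.273 and 0.0753) and Thbs4 was not among the genes tested. In osteoblast-like cells Thbs2 rose by 2.18 ± 0.15 and Ecm1 and Spp1 by 1.58 and 1.57, of which Spp1 did not pass without integration (log2 change 0.31, edgeR adjusted p = 0.255).

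Of the family and processing partners, 5 of 9 tested rose and 1 fell in fibroblast-like cells, 6 of 9 rose and 2 fell in integrated BMSC-like cells, and 5 of 8 rose in osteoblast-like cells. Tgfbi, the paralogue of Postn, rose from 185 and 135 to 674 and 636 CPM in fibroblast-like cells, a log2 change of 2.03 ± 0.19 (edgeR adjusted p = 0.00841), and Loxl1, a collagen and elastin cross-linking enzyme, rose by 1.15. Tnxb, the tenascin of loose connective tissue, fell from 501 and 548 to 101 and 109 CPM, a change of -2.32 ± 0.12 (edgeR adjusted p = 0.00408), where Tnc was higher. In integrated BMSC-like cells Tnn, which was not among the genes tested without integration, rose by 5.44 ± 0.64 (6.62 or 4.82 without Control 1 or Control 2) and Fn1, fibronectin, by 3.98 ± 0.30 (edgeR adjusted p = 0.00229). Without integration Fn1 still rose, by 3.71 (edgeR adjusted p = 0.0385). In osteoblast-like cells Fn1, Pcolce and Bmp1, the last 2 a procollagen proteinase enhancer and the proteinase itself, rose by 1.26, 1.00 and 0.46.

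Of the cell surface receptors for these proteins, 2 of 17 rose and 3 fell in fibroblast-like cells, 6 of 18 rose and 7 fell in integrated BMSC-like cells, and 2 of 14 rose and 2 fell in osteoblast-like cells, and the median log2 change in fibroblast-like cells was -0.20. Itgb1, the common integrin beta chain, rose by 0.53 ± 0.12 (edgeR adjusted p = 0.0454) and Anxa2, a receptor for tenascin-C, by 0.63 ± 0.14 in fibroblast-like cells, and neither passed without integration (edgeR adjusted p = 0.0582 and 0.191). Anxa2 also rose by 1.59 in integrated BMSC-like and 0.80 in osteoblast-like cells. Ptprz1, a tenascin-binding phosphatase, fell from 91.5 and 78.4 to 42.7 and 47.8 CPM in osteoblast-like cells, a change of -0.91 ± 0.11 (edgeR adjusted p = 0.0133). In integrated BMSC-like cells Itga5, the fibronectin receptor chain, rose by 1.73 and Tlr4 fell by 1.56 on the log2 scale, and none of the 3 receptors named in this class passed without integration.

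Of 30 activated fibroblast genes, 19 rose and 2 fell in fibroblast-like cells, with a median log2 change of 1.08. In integrated BMSC-like cells 20 rose and 6 fell, and in osteoblast-like cells 12 rose and 3 fell. Cthrc1, a secreted collagen regulator, rose from 113 and 25.7 to 2088 and 1946 CPM in fibroblast-like cells, a log2 change of 4.83 ± 0.73 (edgeR adjusted p = 0.0201). Adam12, a metalloprotease of activated mesenchyme, rose by 3.44 ± 0.24 and Col1a1, the main chain of type I collagen, from 4836 and 1371 to 23810 and 23462 CPM, a change of 2.93 ± 0.65. Without Control 1 or Control 2 the change was 4.12 or 2.29 for Col1a1 and 6.31 or 4.16 for Cthrc1. Col3a1 rose by 4.24 in integrated BMSC-like and by 2.44 ± 0.16 in osteoblast-like cells, where Fap, the fibroblast activation protein, fell from 586 and 557 to 290 and 279 CPM (edgeR adjusted p = 0.00487). Inhba and Cthrc1 rose by 4.09 and 5.06 in integrated BMSC-like cells, the latter by 5.84 or 4.56 without Control 1 or Control 2. Of the 3 genes named in that class Col3a1 alone passed without integration, with a change of 1.73 (edgeR adjusted p = 0.0385).

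Of the inducers and their readouts, 7 of 25 rose and 4 fell in fibroblast-like cells, 11 of 26 rose and 6 fell in integrated BMSC-like cells, and 10 of 24 rose and 2 fell in osteoblast-like cells. Ltbp1, which stores latent TGF-beta, rose by 1.57 ± 0.21 (edgeR adjusted p = 0.0153), Hif1a by 1.53 and Il13ra1, a receptor chain for the Postn inducer IL-13, by 1.66 in fibroblast-like cells, the last with an edgeR adjusted p of 0.0496, and of 0.0519 without integration. Without Control 1 or Control 2 the change of Il13ra1 was 2.59 or 1.21. Il13ra1 rose by 2.22 in integrated BMSC-like cells, while Tgfbr3, a TGF-beta co-receptor, fell from 379 and 485 to 63.4 and 68.3 CPM, a change of -2.71 ± 0.15 (edgeR adjusted p = 0.00162). Neither passed without integration. In osteoblast-like cells Snai1 rose by 1.5, Smad7, a feedback inhibitor, by 1.13 and Skil by 0.79.

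These counts depended on the clustering and on single preparations. Without integration the BMSC-like class had 190 of 12987 genes called, and of the lists 8 of 27, 2 of 7, 0 of 15, 6 of 28 and 0 of 25 genes rose in the order above, while 1 gene, Ltbp2 of the activated fibroblast list, fell. Without Fracture 1 or without Fracture 2 edgeR called 0 genes in fibroblast-like cells (1902 and 1938 at an unadjusted p under 0.05) and 0 in osteoblast-like cells (2611 and 2696), and with the preparation number as a block the counts over all genes were 1056 and 1000.

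**Figure D5:**
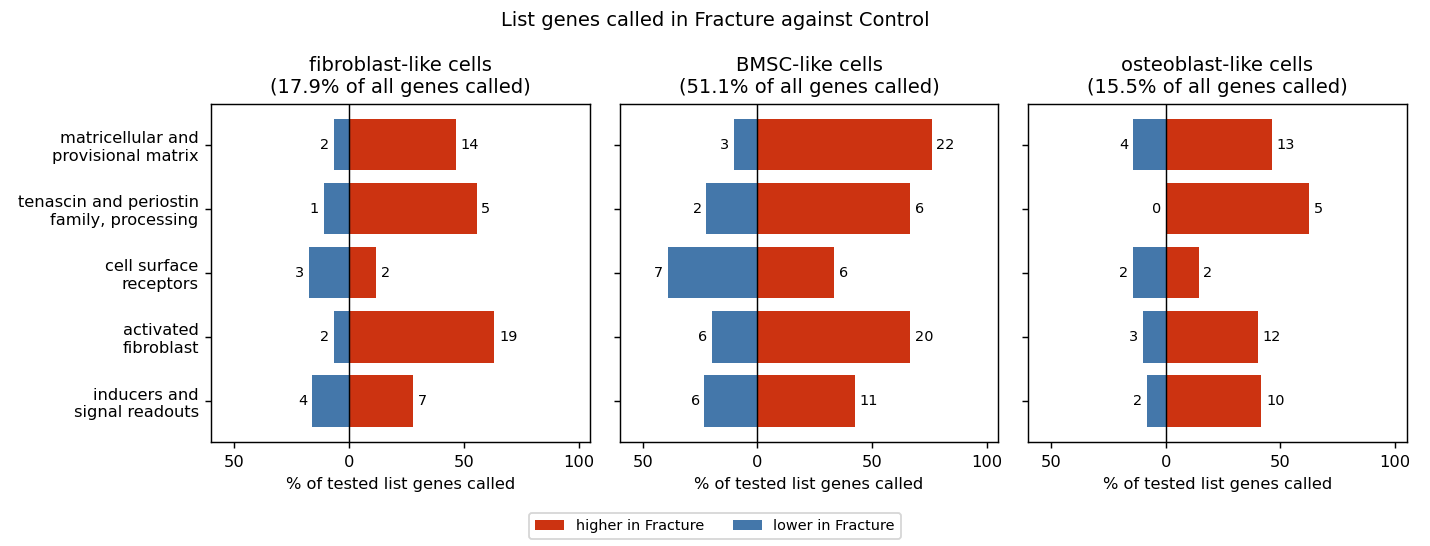
Share of the tested genes of 5 functional lists (y axis) that edgeR called at an adjusted p under 0.05 in 3 cell classes (x axis, %), with red bars to the right for genes higher and blue bars to the left for genes lower in Fracture. Panel titles give the share of all genes called, 17.9%, 51.1% and 15.5%, and in fibroblast-like cells the red bar is longest for the activated fibroblast genes, 19 of 30.

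The genes most like each of the 4 were sought over the 24 sums of 6 classes outside the blood by 4 preparations, as the Pearson correlation of log2(CPM + 1) among 6598 genes, without a test, since sums of a preparation share libraries. Thbs2 (r = 0.909), Col3a1 (0.899), Mrpl14, Mt1 and Mfap2 were nearest to Postn. Cpxm1 (0.890), Dexi, Itsn1, Sphk1 and Olfml2b were nearest to Tnc. Cd248 (0.909), a pericyte and fibroblast surface marker, S100a4, Aspn, Mlf2 and Actg2 were nearest to Thy1, and Rnh1 (0.908), Thbs2 (0.900), Ssc5d, Ppp1r14b and Col14a1 to Lrrc15. Among the 4 themselves Postn and Tnc (0.758) and Postn and Lrrc15 (0.741) were nearest, followed by Thy1 and Lrrc15 (0.706) and Postn and Thy1 (0.584), with Tnc and Lrrc15 (0.428) and Tnc and Thy1 (0.165) last.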

How the data were processed

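Droplet 3' single-cell RNA-seq (10x Genomics version 3 chemistry) was measured in 8 libraries. For every barcode and gene the authors deposited an unnormalized UMI count. Per the labels' processing notes the tools were bcl2fastq 2.19.1.403, UMI-tools 1.0.0, STAR 2.7.3a and featureCounts 1.6.4 on mm10, whereas the study's methods name STARsolo, and which of these made the tables was not settled. The study's methods name EmptyDrops for its STARsolo matrices, but for these fracture tables the step that selected barcodes was not settled. The lowest barcode held 1 to 3 UMIs in Control and 1929 to 2724 in Fracture libraries.

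Cells with 500 to 6000 genes and at most 25% mitochondrial UMIs were kept, 85.6% of barcodes in Control and 99.6% in Fracture. Libraries were integrated and clustered in Seurat 5.3.0 (2000 variable genes, 12 components, resolution 0.1) without the 4 genes and the listed genes. Doublet scores (scanpy 1.11.5) called 1.58% of cells, but almost none in 2 Fracture libraries, and no cell was removed on them. At most 46 barcodes were shared by any pair of libraries. Counts were summed by class and preparation and tested with edgeR 4.0.16 (quasi-likelihood, TMM, filterByExpr, Benjamini-Hochberg adjusted p under 0.05), after a test on simulated data, with DESeq2 1.42.0 as an alternative. Genes named from a list are up to 3 called genes per class with the largest change, no overlap between groups and a mean of at least 20 CPM, and genes named beside a member the 5 largest rises and falls. The 4 genes and the lists were chosen with earlier results of these data known. Some results are not reported here. Wilson 95% intervals, ratio intervals and limits of 3 counts for a count of 0 cover counting error only.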

Additional observations from a re-analysis of the deposited data

Results flagged for a closer look

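A group of 6 genes had log2 changes (Fracture over Control) of opposite sign in 2 of the 3 classes, with every preparation of a group on one side in each class. The share of all genes that do so is not given here, so the count of 6 is a description only. The difference between classes was not tested in any case, and a sign below is that of the values, whether or not the change passed the test. Tnc was higher after fracture in fibroblast-like cells (log2 ratio 3.0) and lower in integrated BMSC-like (-0.34) and osteoblast-like cells (-0.60), differences of 3.34 and 3.60, and without integration its BMSC-like ratio was 0.91. Its Fracture level in osteoblast-like cells as a whole lay below that of erythroid-like cells, so the osteoblast-like ratio is a value near that level, though in cluster 4, where Tnc lay above it, Tnc was also lower in Fracture. Ctgf was lower in fibroblast-like cells (-3.19) and higher in integrated BMSC-like (0.24) and osteoblast-like cells (0.60), differences of -3.43 and -3.79, and the 2 higher values did not pass (edgeR adjusted p = 0.102 and 0.083). Fbn2 was lower in osteoblast-like cells (-1.41) and higher in fibroblast-like (3.85) and integrated BMSC-like cells (0.67), differences of 5.26 and 2.08. Loxl1 was higher in fibroblast-like (1.15) and lower in integrated BMSC-like cells (-0.66), a difference of 1.80, and Ltbp1 likewise (1.57 and -0.76), a difference of 2.33. Skil was lower in fibroblast-like cells (-0.42) and higher in integrated BMSC-like (0.61) and osteoblast-like cells (0.79), differences of -1.03 and -1.21, and its lower value in fibroblast-like cells did not pass (edgeR adjusted p = 0.174), though it did without integration (-0.64, edgeR adjusted p = 0.0448). Without integration the BMSC-like changes of Loxl1 (0.51) and Ltbp1 (0.24) had the same sign as in fibroblast-like cells, while those of Ctgf (0.80), Fbn2 (0.78) and Skil (0.41) kept their sign. Of these 5 values only that of Ctgf passed (edgeR adjusted p = 0.047), with 0.071 for Loxl1, 0.233 for Ltbp1, 0.099 for Fbn2 and 0.242 for Skil.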

How the results depend on the processing

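Between Fracture and Control, 2263 genes were called in fibroblast-like, 7550 in integrated BMSC-like and 2125 in osteoblast-like cells. Leaving out 1 preparation in turn moved these counts to 0 to 4319, 2573 to 9029 and 0 to 5361, where the lone sample of a group is assumed to vary like the others. In fibroblast-like cells the count was 0 without Fracture 1 or Fracture 2 (1902 and 1938 at an unadjusted p under 0.05) and 4319 without Control 2, and DESeq2 called 2328 with every preparation. In osteoblast-like cells it was 0 without either Fracture preparation (2611 and 2696), 4828 without Control 1 and 5361 without Control 2, and DESeq2 called 1990. Without integration BMSC-like cells gave 190, and with no filter on low counts fibroblast-like cells gave 3712. Preparations of the same number did not deviate together (r = 0.0276, 0.0296 and 0.0197), so the numbers do not pair them, and with the replicate block the counts were 1056, 6847 and 1000.

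Between positive and negative cells the calls were 111 for Postn, 479 for Tnc, 207 for Thy1 and 481 for Lrrc15. Without the replicate block, which pairs the cells of a preparation, edgeR called 0, 14, 0 and 337 (814 genes for Postn and 402 for Thy1 at an unadjusted p under 0.05), and DESeq2 with the block called 197, 244, 75 and 99. Leaving out 1 preparation gave 19 to 140 for Postn, 232 to 359 for Tnc and 60 to 335 for Thy1, and could not be done for Lrrc15. With no filter Postn gave 1098 and Tnc 778. Thinned to 4000 UMIs, Postn, Thy1 and Lrrc15 gave 243, 345 and 933, and to 1000 UMIs Thy1 and Lrrc15 gave 29 and 179. The cause of these shifts was not tested.

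Without integration, the Tnc log2 ratio in BMSC-like cells was 0.91, and the shares of BMSC-like cells with Thy1, with Postn and Thy1, and with Tnc and Thy1 differed by -0.0861, -0.0287 and -0.0861 percentage points. Of 213 other values of the members' log2 ratios 193 moved by less than 1 SD, 19 by more and 1 turned. Of 300 for shares, 202, 95 and 3 did so. Of 514 for named list genes 433 kept their side of the threshold and 81 lost it, and of 396 for genes named beside a member 344 and 52. Leaving out the 6% of cells with the highest doublet scores, an alternative chosen after seeing the data, gave 1656 genes in fibroblast-like cells. With 2 preparations a group, and 150 fibroblast-like cells in Control 2, low levels in Control rest on few UMIs, 34 of Lrrc15 there.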
